A study of Auxenochlorella pyrenoidosa with 12 samples.

Results

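The first transcript response of Chlorella pyrenoidosa to potassium peroxymonosulfate (PMS) was read from 4 of the 12 RNA-seq libraries of the study. The treated group was made of 2 libraries of cells that received 8.49 mg/L PMS, 0.5 of the median effective concentration (EC50), with a title that places them on day 0. The untreated group was made of 2 control libraries at 0 mg/L. The titles of the controls carry "d0", which can be read as day 0 or as dose 0, so a difference in culture age cannot be told apart from the exposure. The labels do not say how long after PMS addition the day 0 cells were collected, nor whether libraries 1 and 2 of a group came from separate cultures. Expression was deposited as FPKM (fragments scaled for contig length and library size) for 30814 contigs of an assembly made without a genome. A mean of at least 1 FPKM over these 4 libraries kept 15690 contigs, which held 99.4% to 99.7% of the FPKM of each library, and left out 15124.

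Chlorella is a unicellular freshwater green alga with a single cup-shaped chloroplast. PMS is a strong oxidant that attacks thiols and, once activated, gives sulfate and hydroxyl radicals. Green algae meet such oxidants with superoxide dismutases, catalase, the ascorbate and glutathione cycle and thioredoxins, and the chloroplast is both a source and a target of reactive oxygen. The files pair no contig with a gene name, so none of these genes can be placed in the data, the labelled cell type could not be checked by marker genes, and the response is described by how many contigs moved, how far, and at which levels.

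The overall range of levels was much alike in the day 0 and control libraries. Among the kept contigs the median was 6.27 and 6.07 FPKM in the day 0 libraries, and 6.03 and 5.88 FPKM in the control libraries. The upper quartile was 16.1 and 15.4 FPKM on day 0, against 15.8 and 15.6 FPKM in the control. The lower quartile lay lower on day 0, at 2.29 and 2.10 FPKM, against 2.70 and 2.51 FPKM in the control, and the groups did not overlap there. Fewer contigs of the whole table reached 1 FPKM on day 0, with 14772 and 14307, against 15891 and 15578 in the control. The number that reached 10 FPKM was instead higher on day 0, with 5889 and 5731, against 5641 and 5619 in the control. The FPKM of the whole table summed to 596225 and 603105 in the day 0 libraries, against 541131 and 558129 in the control libraries. Counts past a fixed FPKM are therefore not taken at an equal total. FPKM is a relative measure, so these values do not tell fewer cells of a kind from less RNA per cell.

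The most abundant contigs held a larger share of the library on day 0. The 10 contigs with the highest mean over the 4 libraries made up 16.4% and 19.4% of the FPKM of the day 0 libraries, against 14.4% and 14.9% in the control libraries. The 100 highest made up 43.3% and 47.3% on day 0, against 41.4% and 42.6% in the control. Day 0 library 2 stood highest in both cases. The single most abundant contig had 31159 and 36542 FPKM on day 0, against 25358 and 27548 FPKM in the control, with no overlap between the groups. Its log2 change of 0.35 did not pass the test (limma adjusted p = 0.27). Of the 100 highest contigs, 76 were higher in both day 0 libraries than in both control libraries and 10 were lower in both. Over all kept contigs these shares were 36.4% and 32.5%. Only 6 and 2 of the 100 passed the test, against 11.7% and 15.1% of all kept contigs. The total FPKM of the day 0 libraries was also higher, which was not removed from these values.

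Of the contigs that passed the test on day 0 more had fallen than risen, and the calls of 2-fold or more were mostly falls. By limma on log2(FPKM + 1), 4192 of the 15690 contigs (26.7%) had a Benjamini-Hochberg adjusted p under 0.05 and were called. Of these, 1830 (11.7%) were higher on day 0 and 2362 (15.1%) were lower. After rescaling of the libraries by their median ratio, 3857 (24.6%) were called, 1418 (9.04%) higher and 2439 (15.5%) lower. All 4192 called contigs had no overlap between the groups. Over all kept contigs, 5706 (36.4%) were higher in both day 0 libraries than in both control libraries and 5096 (32.5%) were lower in both.

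The median log2 change was 0.69 among the higher contigs, a 1.61-fold rise, and -1.04 among the lower ones, a 2.06-fold fall, while over all 15690 contigs it was 0.03. The log2(FPKM + 1) scale understates the change of low contigs. At 1.5-fold or more, 1202 contigs rose and 1886 fell. At 2-fold or more the numbers were 395 (2.52% of the kept contigs) and 1245 (7.93%), so rises were 24.1% of the calls of that size. At 4-fold or more 41 contigs rose and 144 fell, at 8-fold or more 7 rose and 19 fell, and at 16-fold or more 1 rose and 2 fell. On mean FPKM itself the same calls gave larger numbers. Among called contigs with both means above 0.1 FPKM, 652 rose and 1385 fell by 2-fold or more, and 151 and 682 by 4-fold or more. At 8-fold or more the numbers were 37 and 281, and at 16-fold or more 9 and 61. Where the higher mean was at least 10 FPKM, 176 rose and 276 fell by 2-fold or more. The numbers there were 50 and 94 at 4-fold or more, and 11 and 37 at 8-fold or more. On the log2(FPKM + 1) scale, 662 of the 1245 falls and 116 of the 395 rises had 1 mean below 1 FPKM. Such contigs passed the filter only through the other group.

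**Figure D1:**
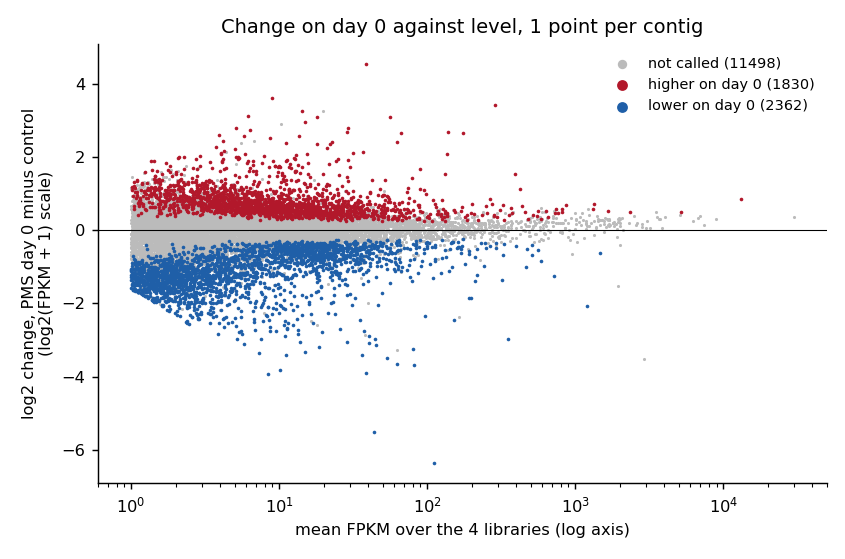
Each point is 1 of the 15690 kept contigs, with its mean FPKM over the 2 day 0 and 2 control libraries on a log x axis and its log2 change, PMS day 0 minus control, on the y axis. Red points (1830) were called higher and blue points (2362) lower by limma at an adjusted p under 0.05. Of the 7031 contigs below 5 FPKM, 597 are red and 1180 blue. Some of these passed the filter of 1 FPKM only through 1 group.

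The number of calls, large falls included, dropped without any 1 of the 4 libraries, and by the most without control library 1. Each such fit leaves 1 library in a group, and fewer calls can follow from that alone. Without control library 1, 388 contigs were called higher and 550 lower, and without control library 2 the numbers were 853 and 1434. Without day 0 library 1 they were 1071 and 1895, and without day 0 library 2 they were 1130 and 1241. At 2-fold or more, falls numbered 1245 and rises 395 with all libraries, and falls still outnumbered rises without each of the 4, by 368 to 240 without control library 1, 952 to 410 without control library 2, 1162 to 456 without day 0 library 1 and 727 to 377 without day 0 library 2. A total of 353 higher and 519 lower contigs were called with all libraries and again without each of the 4 in turn. These contigs were chosen for their stability, and their median log2 change was 1.13 among the higher and -1.29 among the lower contigs. The low-value filter stayed the same when a library was left out. With all libraries, 662 of the 1245 falls and 116 of the 395 rises had 1 mean below 1 FPKM. Such contigs passed only through the other group, so their number does not show which direction was the more frequent. Contigs with both means at 1 FPKM or more (279 rises, 583 falls) were not counted without each library.

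The difference between groups was wider than that between libraries of a group. Between a day 0 and a control library the median absolute log2 difference was 0.42 and 0.36 for day 0 library 1 and 0.42 and 0.36 for day 0 library 2, against control libraries 1 and 2 in turn. Both day 0 libraries lay nearer to control library 2 by this measure. It was 0.22 between the day 0 libraries and 0.14 between the control libraries. The number of contigs at least 2-fold apart was 1827 to 2916 (11.6% to 18.6%) between groups, 841 (5.36%) between the day 0 libraries and 435 (2.77%) between the controls. In each of the 4 pairs, contigs at least 2-fold lower on day 0 were the more numerous. They were fewest for day 0 library 1 with control library 2, at 1232 against 595. They were most for day 0 library 2 with control library 1, at 2166 against 750. Contigs that passed the low-value filter only through 1 group are among them, so these counts do not show which direction was the more frequent.

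The 20 largest rises and the 20 largest falls were picked from the called contigs. A change wider than the spread between libraries is therefore fixed by that choice, and the values only give its size. Among the 20 called contigs with the largest rise, the log2 change ran between 2.44 and 4.55. Their median was 27.9 and 25.8 FPKM in the day 0 libraries, against 2.40 and 2.46 FPKM in the control libraries. The highest of these 20 reached 530 and 524 FPKM on day 0, against 48.3 and 47.6 FPKM as the highest control values. All 20 stayed called without each of the 4 libraries in turn. Among the 20 largest falls the log2 change ran between -6.37 and -2.98. Their median was 4.22 and 2.19 FPKM on day 0, against 73.5 and 63.1 FPKM in the control. Of these 20, 16 stayed called without each of the 4 libraries in turn, and 2 were listed at 0 in a single day 0 library.

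**Figure D2:**
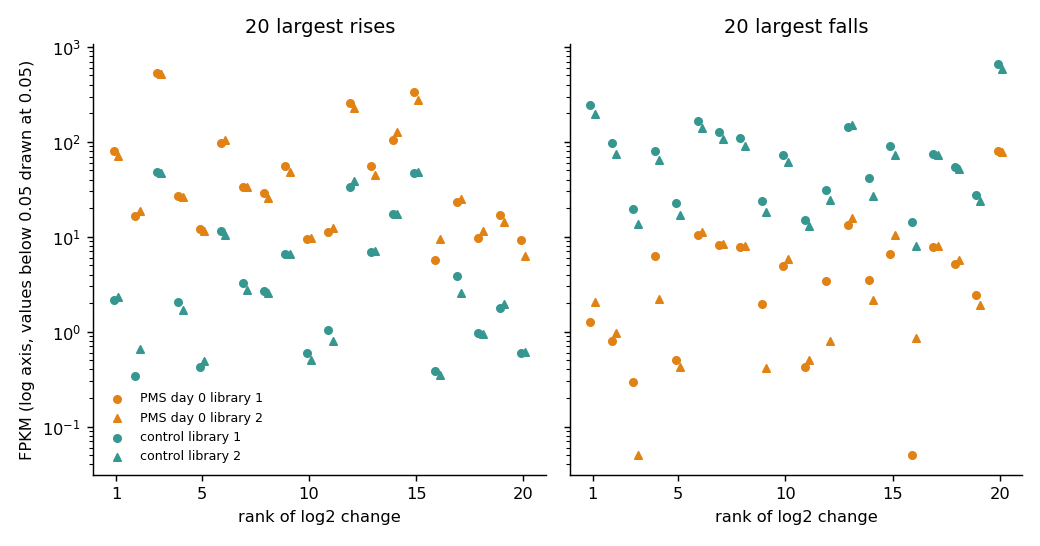
FPKM on a log y axis in the 2 PMS day 0 libraries (orange) and the 2 control libraries (green) for the 20 called contigs with the largest rise (left) and the 20 with the largest fall (right), ordered along the x axis by log2 change, with values below 0.05 FPKM drawn at 0.05. The 2 libraries of a group lie close together for most contigs, and the groups overlap for none, as holds for every called contig.

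The balance of rises and falls among the calls differed by level of the contig. The low classes include contigs with a mean below 1 FPKM in 1 group, which passed the filter of 1 FPKM only through the other. Their shares therefore do not show which direction was the more frequent. Among the 3058 contigs with a mean of 1 to 2 FPKM over the 4 libraries, 5.53% were called higher on day 0 and 17.6% lower, with a median log2 change of -0.22. Among the 3973 contigs at 2 to 5 FPKM, 10.8% were higher and 16.1% lower. At 5 to 10 FPKM the order was the other way, with 14.7% higher and 11.4% lower, and at 10 to 50 FPKM 14.26% were higher and 15.97% lower. At 500 FPKM and over, 10.2% of 176 contigs were higher, 3.98% were lower, and the median log2 change was 0.21. Of the 1245 falls of 2-fold or more, 923 (74.1%) had a mean below 5 FPKM, as did 210 (53.2%) of the 395 rises of that size and 44.8% of all kept contigs.

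Below 5 FPKM, 597 contigs were higher and 1180 lower. At 5 FPKM and over the numbers were near even, with 1233 higher and 1182 lower. Without control library 1 they became 262 and 315, without control library 2 they became 557 and 715, without day 0 library 1 they became 645 and 978, and without day 0 library 2 they became 791 and 712. With rescaled libraries they were 961 and 1308. The sign of the difference at these levels was therefore not fixed. Below 5 FPKM falls were the more numerous in each of these settings. Contigs that passed the filter only through 1 group are among them, so this does not show which direction was the more frequent. The spread was widest in the low contigs, with a median absolute log2 difference between libraries of 0.36 within day 0 and 0.31 within the control at 1 to 2 FPKM, against 0.16 and 0.09 at 10 to 50 FPKM.

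**Figure D3:**
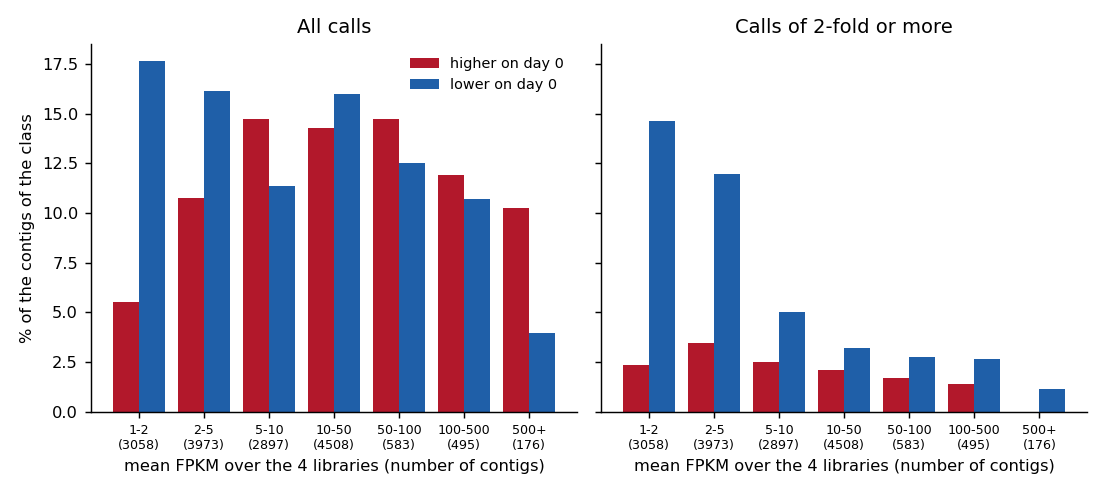
Bars give the percentage of contigs called higher (red) and lower (blue) on PMS day 0 than in the control, by class of mean FPKM over the 4 libraries, for all calls (left) and for calls of 2-fold or more (right), with the number of contigs of each class in brackets. Falls of 2-fold or more reach 14.6% of contigs at 1 to 2 FPKM and 3.22% at 10 to 50 FPKM. Rises of that size stay between 0% and 3.47%. The low classes include contigs that passed the filter of 1 FPKM only through 1 group.

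The surplus of falls among all calls was tied to contigs with a mean below 1 FPKM in 1 of the groups. The day 0 mean was below 1 FPKM and the control mean at or above it in 1425 contigs, of which 739 were called lower. The opposite was seen in 606 contigs, of which 178 were called higher. These contigs passed the low-value filter only through the group where they were high, so their calls say nothing on which direction was the more frequent. Among the 13659 contigs with both means at 1 FPKM or more, 1652 were called higher on day 0 and 1623 lower. At 2-fold or more, 279 of those contigs rose and 583 fell.

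A set of 59 kept contigs was listed at 0 in both day 0 libraries, with a median control mean of 2.67 FPKM and a highest of 4.90 FPKM. Another 25 were listed at 0 in both control libraries, with a median day 0 mean of 2.84 FPKM and a highest of 8.79 FPKM. The test called 51 contigs of the first set and 1 of the second, and all members of both sets passed the low-value filter only through the group where they were measured. No contig of 10 FPKM or more in one group was listed at 0 in both libraries of the other. At or below 0.1 FPKM in both control libraries were 34 contigs, 3 of them with a day 0 mean of at least 10 FPKM. At or below 0.1 FPKM in both day 0 libraries were 77, and 0 of them had a control mean of at least 10 FPKM. These contigs too passed the filter only through 1 group.

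In summed FPKM, fewer contigs held 50% of the rise than held 50% of the fall. The 1830 higher contigs made up 13.9% and 14.6% of the FPKM of the day 0 libraries, against 9.44% and 9.76% of the control libraries. Their mean FPKM summed to 32782 more on day 0 than in the control, of which a single contig gave 23.5%, 10 contigs gave 41.9%, 22 contigs gave 50% and 741 contigs gave 90%. The 2362 lower contigs made up 5.06% and 4.58% of the day 0 libraries, against 10.4% and 9.25% of the control libraries. Their sum differed by -25093 FPKM, with 141 contigs needed for 50% of it and 1316 for 90%. In the contigs that stayed called without each of the 4 libraries in turn the differences were 7341 FPKM for the higher and -8073 FPKM for the lower ones, so the larger side turned. The single contig with 23.5% of the rise, described next, is not among them. The contigs that were not called summed to 42942 FPKM more on day 0, and all 15690 kept contigs to 50631 FPKM more. The sums of the called contigs describe contigs that were selected by their change, and they are no balance of the response.

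TRINITY_DN449_c0_g3_i1_3 had the largest rise in FPKM among the called contigs. It stood at 14426 and 19655 FPKM in the day 0 libraries, against 8932 and 9760 FPKM in the control libraries, and was the second most abundant contig over the 4. Both day 0 libraries were above both controls, though the gap between the groups was smaller than that between the day 0 libraries. It was 1.82-fold higher on day 0, with 17041 ± 3698 FPKM, against 9346 ± 586 FPKM in the control (SD, n = 2 each), and its log2 change was 0.85 with an SE of 0.24 (limma adjusted p = 0.0287). Its share of the library was 2.42% and 3.26% on day 0, against 1.65% and 1.75% in the control.

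TRINITY_DN338_c0_g1_i4_3 had the next largest rise among the called contigs. Its level was 5615 and 6596 FPKM on day 0, against 4102 and 4459 FPKM in the control, which gave a log2 change of 0.51 with an SE of 0.15 (limma adjusted p = 0.0363). The groups did not overlap, and the gap between them was wider than that between the day 0 libraries.

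A log2 change of -3.52, in 1 of the 20 most abundant contigs, was not called. Among the called contigs, the largest fall in FPKM was that of TRINITY_DN449_c0_g1_i90_1. It stood at 600 and 353 FPKM on day 0, against 2008 and 1867 FPKM in the control. Both day 0 values lay far below both controls. It was 4.07-fold lower on day 0, with -2.07 on the log2 scale and an SE of 0.64 (limma adjusted p = 0.0401). TRINITY_DN2662_c0_g1_i2_3 stood at 954 and 1370 FPKM on day 0, against 1847 and 1666 FPKM in the control, or -0.62 on the log2 scale with an SE of 0.17 (limma adjusted p = 0.0249). Its groups were apart, though by less than the gap between the 2 day 0 libraries. All 4 contigs kept their direction in every alternative tried, and all 4 missed the adjusted threshold in some of them. Without control library 1 the adjusted p was 0.159 and 0.192 for the rises and 0.168 and 0.157 for the falls, in the order given.

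The number at the end of the contig name, which neither the labels nor the files explain, went with the direction of change. Contigs ending in 4 fell the most often, with 286 (6.49%) of 4407 higher on day 0 and 1065 (24.2%) lower. Contigs ending in 2 were higher in 631 (15.95%) of 3955 and lower in 406 (10.3%), and those ending in 3 were higher in 625 (15.2%) of 4102 and lower in 421 (10.3%). Contigs ending in 1 had 288 (8.93%) of 3226 higher and 470 (14.6%) lower. Contigs ending in 4 were 28.1% of the kept contigs but 54.4% of the falls of 2-fold or more and 12.9% of the rises of that size.

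The same split was seen in each pair of libraries for the numbers 2, 3 and 4. The median log2 difference of a day 0 library from a control library was -0.30 to -0.11 for contigs ending in 4, 0.12 to 0.18 for those ending in 2 and 0.05 to 0.22 for those ending in 3. For those ending in 1 it ran between -0.08 and 0.06. Between the 2 control libraries the median log2 difference of the contigs ending in 4 was 0.09, with library 1 the higher, so this set also differed between the controls. The median level of these contigs was 3.64 FPKM in each day 0 library, against 4.90 and 4.25 FPKM in the control libraries.

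Level and name number were linked, and the split was clearest in low contigs. At 10 FPKM and over the median log2 change was 0.0005 for contigs ending in 4. It was 0.08, 0.09 and 0.09 for those ending in 1, 2 and 3. Contigs that passed the low-value filter only through 1 group were not set apart by end number. Below 5 FPKM, 28.8% of the 2455 contigs ending in 4 were lower on day 0 and 3.71% were higher, with a median log2 change of -0.52. Among the 1480 contigs ending in 2 at that level, 7.50% were lower and 13.9% higher, with a median of 0.27. At 5 FPKM and over, 18.4% of the contigs ending in 4 were lower and 9.99% higher, with a median of -0.02, against 11.9% and 17.2% of those ending in 2, with a median of 0.12. Without control library 1, 59 contigs ending in 4 were higher and 235 lower, and 153 ending in 2 were higher and 97 lower. The balance of contigs ending in 3 turned without day 0 library 1, to 321 higher and 369 lower, while that of the other numbers kept its side without each of the 4 libraries in turn and after rescaling.

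**Figure D4:**
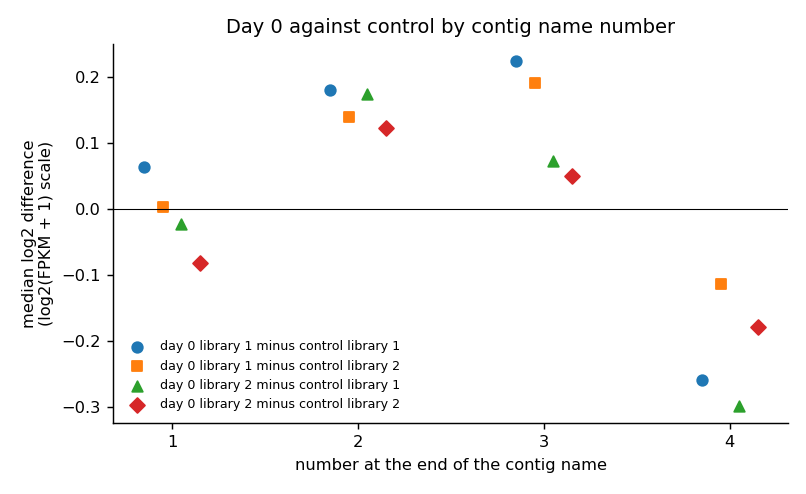
Points give the median log2 difference, day 0 library minus control library on the log2(FPKM + 1) scale, over the kept contigs whose name ends in 1, 2, 3 or 4, with 1 symbol for each of the 4 pairs of libraries. All 4 points lie below 0 for the number 4 and above 0 for the numbers 2 and 3.

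Contigs that the assembler placed in the same component, and that carry the same end number could be compared in few cases. Of 866 such components with at least 2 kept contigs, 118 had at least 2 called contigs. In 20 of these all calls were higher on day 0, in 74 all were lower, and in 24 (20.3%) both directions occurred, where 43.65% of all calls were higher. Contigs that were not called do not enter these numbers. Such contigs can share sequence, and the labels do not say how fragments were divided between them, so opposite moves within a component are uncertain.

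The contigs called higher on day 0 did not hold those levels in the later treated libraries. In the 1830 higher contigs the 2 control libraries had medians of 5.52 and 5.95 FPKM, and the 2 day 0 libraries 10.7 and 10.5 FPKM. For the same contigs the medians were 3.77 and 3.42 at day 3, 4.49 and 4.31 at day 6, 4.59 and 4.32 at day 9, and 4.18 and 4.31 FPKM at day 12. All of these later medians lay below both controls, but in the 353 contigs that stayed called without each of the 4 libraries they lay above. Those had 4.86 and 4.81 FPKM in the controls, 14.2 and 13.6 at day 0, 6.22 and 6.27 at day 3 and 8.55 and 8.23 FPKM at day 12. The contigs that were not called were also lower by then, at 3.39 and 3.35 FPKM in the day 12 libraries. They stood at 5.75 and 5.74 FPKM in the control libraries. All kept contigs passed a filter on the day 0 and control libraries alone, so lower later medians may follow from that choice. These FPKM were not rescaled. The median-ratio factors were 0.90 to 1.00 in the later libraries, against 1.13 to 1.21 in the day 0 and control libraries.

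The 2362 lower contigs took another course. The control libraries had medians of 7.82 and 6.77 FPKM for them, the day 0 libraries 2.98 and 2.35, the day 3 libraries 2.54 and 3.60, and the day 6 libraries 4.52 and 5.29 FPKM. The day 9 libraries stood apart from each other, at 5.66 and 8.85 FPKM, and the day 12 libraries, at 8.74 and 8.38 FPKM, were above both controls. In the 519 that stayed called without each of the 4 libraries, the medians were 12.3 and 11.2 FPKM in the controls, 3.75 and 3.52 at day 0, 3.82 and 6.11 at day 3, 13.2 and 14.6 at day 6 and 20.6 and 20.3 FPKM at day 12. The 1245 contigs that fell by 2-fold or more had medians of 3.37 and 3.20 FPKM in the day 12 libraries, against 4.79 and 3.94 FPKM in the controls. Of these, 662 had 1 mean below 1 FPKM and passed the filter only through the other group. A control level above the later ones may follow from that choice. Both sets were chosen by their day 0 and control values, and the later days may differ from the control in culture age as well, so these medians are given with no test.

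**Figure D5:**
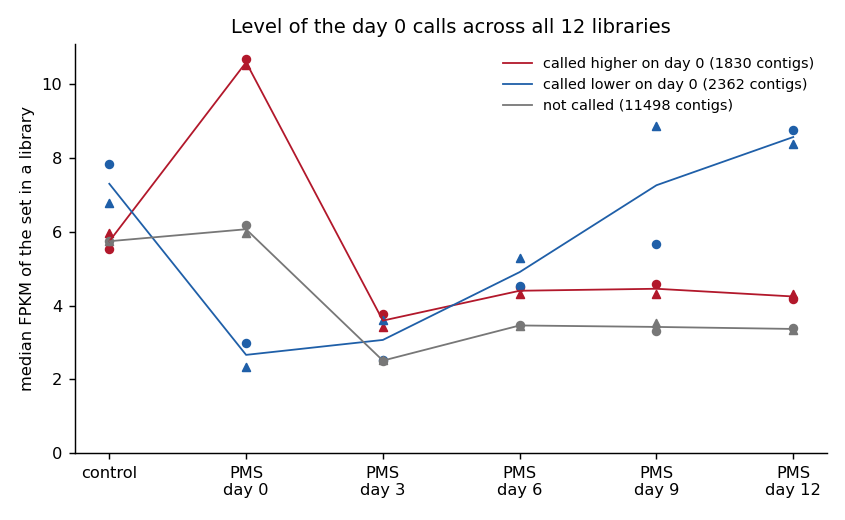
The median FPKM of the contigs called higher (red), called lower (blue) and not called (grey) on PMS day 0 against the control is plotted for each of the 12 libraries (circles library 1, triangles library 2), with lines through the mean of each pair. The red set peaks on day 0 at 10.7 and 10.5 FPKM, and the blue set lies above the controls on day 12.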

How the data were processed

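RNA was sequenced from whole cells with an Illumina TruSeq RNA kit, per the labels' protocols. The authors deposited FPKM values, with row names of the Trinity assembler. Nothing in the labels or the file names the aligner, abundance program, read filters or annotation. Between 160 and 231 values per library lay above 0 but below 1e-06 FPKM, so low values are not whole-number steps of a fragment, no counts were recovered and the depth is unknown. No pair of the 4 libraries shared an identical value above 0. Contigs whose mean over the 4 libraries reached 1 FPKM were tested on log2(FPKM + 1) in limma (version 3.58.1 under R 4.3.3), by lmFit, contrasts.fit and eBayes with a trend. All 12 libraries entered a single fit of 6 group means with 6 residual degrees of freedom, and p-values were adjusted over the 15690 contigs. They measure only the spread between these libraries, which may be technical. An exact permutation test of 2 against 2 cannot go below a two-sided p of 0.333, so none was used. The test was checked on simulated data. Fold counts use the log2(FPKM + 1) scale. Since contigs have no gene names, 4 are named: among called contigs without overlap between groups, the 2 largest rises and 2 largest falls in mean FPKM. The comparison and these choices were made with earlier results of these data known. Python 3.11.15 and matplotlib 3.10.9 were used for summaries and figures.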

Additional observations from a re-analysis of the deposited data

How the results depend on the processing

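In every alternative tried, no contig called with the settings of the report was called in the opposite direction. Falls of 2-fold or more outnumbered rises in each alternative. Contigs with a mean below 1 FPKM in 1 group were not set apart in these counts. Calls of any size were more often lower than higher in all alternatives but a minimum mean of 5 FPKM, which left 8659 contigs with 1370 higher and 1231 lower (2601 in all, 185 rises and 326 falls of 2-fold or more) and a median log2 change of 0.0816. A pseudocount of 0.1 gave 1132 higher and 1837 lower contigs. Leaving out each of the 12 libraries in turn gave 388 to 2324 higher, 550 to 2803 lower and 938 to 5124 called contigs, with 240 to 456 rises and 368 to 1347 falls of 2-fold or more and a median log2 change of -0.01 to 0.07. At an unadjusted p under 0.05 there were 6529 contigs. The lowest counts came without control library 1, and the highest totals without a day 9 library, which enters only through the shared spread. The cause was not tested. Rescaling by median ratio moved the median log2 change to 0.0005, with 1418 higher and 2439 lower contigs. The 4 libraries fitted alone gave 1469 and 1926, no filter on low values 1411 and 2075, a minimum mean over all 12 libraries 1439 and 1864, and a fit without the day 3 libraries 1690 and 2298. The replicate number as a block gave 1625 higher and 2175 lower contigs, 3800 in all. Deviations of same-numbered libraries correlated at 0.0328, so the numbers were not taken to pair them. Without known depth, differences at 1 to 5 FPKM are the least certain.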
